A study of Mus musculus with 12 samples.

Results

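The genes described here are the transcriptional readout and the nuclear machinery of YAP, measured by RNA-Seq in mouse small-intestinal tumor organoids. They are 10 of the 24906 genes listed for every library and were chosen by name: 6 known YAP target genes (Ctgf, Cyr61, Ankrd1, Amotl2, Axl and Lats2) and 4 genes for the proteins that act on them (Yap1, Wwtr1, Tead1 and Tead4). Ctgf is listed as Ccn2 and Cyr61 as Ccn1. All 12 libraries share the genotype Smad4KO;BRAFV600E/+;pINDUCER-SMAD4: Smad4 was deleted and BRAF activated through Villin-CreERT2, a tamoxifen-controlled Cre of the gut epithelium, and SMAD4 could be put back with doxycycline (dox) from a lentiviral construct. For 48 h organoids were kept in BME (basement membrane extract, a gel for growth in 3D) or straight on tissue culture plastic. In BME there were untreated libraries of lines 682, 700 and 889, dox libraries (4 µg/mL) of 700 and 889, and 1 library of line 682 labelled as dox with the word mock. By title and genotype that mock library looks like any other dox library, and the labels do not say what mock stands for. It was counted as a control, as in the study. On plastic, lines 560, 700 and 889 each gave 1 untreated and 1 dox library. Controls are labelled untreated, while the treatment protocol names a vehicle. The labels give line numbers only, with no age and no statement that lines came from separate mice, so the p-values measure the spread between these lines.

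YAP and its paralog TAZ, the product of Wwtr1, are co-activators that carry no DNA-binding domain and reach their target genes through TEAD factors. When the Hippo kinases LATS1 and LATS2 phosphorylate them, they are held in the cytoplasm. Cell spreading on a stiff support, actin tension and loss of cell contact favor their entry into the nucleus, and in the gut epithelium they are known for their part in regeneration and tumor growth. Because this control acts on protein location, the mRNA of Yap1 does not report YAP activity, and the mRNA of target genes is the usual readout.

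TEAD factors bind the letters GGAATG, and the promoters of the members were searched for them on both strands because the target genes are defined by this route. Read from the other strand the same site is spelled CATTCC. RefSeq promoter windows (GRCm38.p6, 250 bases before to 50 bases after the start) were at hand for 7 of the 10 genes, all but Ctgf, Tead1 and Tead4. All 7 hold the letters on one or the other strand, as do 14.7% of 32851 windows and 16.6% of 27025 genes. Stretches of at most 60 bases around the match are given 5′ to 3′ on the strand of the gene, with the matching letters in capitals.
Amotl2 (chr9:102717712-102717771, + strand): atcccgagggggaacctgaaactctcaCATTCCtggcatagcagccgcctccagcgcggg
Ankrd1 (chr19:36120022-36120081, - strand): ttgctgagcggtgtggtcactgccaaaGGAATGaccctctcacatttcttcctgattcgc
Axl (chr7:25788934-25788983, - strand): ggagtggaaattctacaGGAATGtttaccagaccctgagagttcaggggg
Cyr61 (chr3:145650056-145650115, - strand): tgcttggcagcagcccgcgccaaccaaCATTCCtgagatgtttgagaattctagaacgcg
Wwtr1 (chr3:57576014-57576073, - strand): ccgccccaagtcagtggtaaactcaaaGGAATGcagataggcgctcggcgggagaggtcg
Yap1 (chr9:8004705-8004764, - strand): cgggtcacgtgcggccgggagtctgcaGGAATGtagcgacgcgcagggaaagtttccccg
The match begins at position -65 from the start in Amotl2, -103 in Cyr61, -233 in Axl and -141 in Yap1. Ankrd1 holds a second match at -123 beside the one shown at -210. In Wwtr1 the same site lies at -170 or -136 from either of its annotated starts. In Lats2, 1 of 2 windows holds the letters, at position 5 after the start. A match of these letters is a description of the window and no binding was measured here.

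The depth of the libraries, rebuilt from the deposited values, was 14534021 to 16328600 reads in BME and 17049924 to 21102552 on plastic. Untreated line 560 on plastic stood apart from the other plastic libraries. It had the highest sum of FPKM of the 6 (706749.8) and the lowest median FPKM among genes above 0 (4.4577, against 4.9855 to 5.4369 in the others). It was extreme in both directions, with the lowest of the 6 plastic values for 28.6% of 12333 genes tested and the highest for 27.6%. The epithelial character of the organoids was clear, since all 8 epithelial markers were above 0 in every library and their summed level was 3902 to 9534 FPKM in BME and 11680 to 17190 FPKM on plastic. The summed level of 9 mesenchymal markers was 0.545 to 21.7 FPKM, with 1 value over 10, the dox library of line 889 on plastic, where Vim alone made up 21.6 FPKM. The 5 endothelial markers summed to at most 3.65 FPKM and the 6 immune markers to at most 1.81 FPKM. Pecam1, Cd3e and Ptprc, which define endothelial, T and blood cells, were at 0 to 8 rebuilt reads in every library, while Tek, an endothelial receptor kinase, reached 268 reads in BME and 245 on plastic, and the myeloid genes Csf1r and Itgam reached 96 and 48 reads. Smad4, the gene under dox control, was at 6.23 to 10.3 FPKM in the 4 BME control libraries and at 17.2 and 27.3 FPKM in the 2 dox libraries. On plastic it was at 1.54 to 4.76 FPKM untreated and 18.1 to 73.6 FPKM with dox, without overlap in either environment.

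The 6 target genes covered a wide range of levels in the untreated BME organoids. Ctgf, which encodes the secreted matricellular protein CCN2 and is also known as a TGFβ-responsive gene, led them at 186 ± 149 FPKM (SD, n = 3). Cyr61, its close relative CCN1, followed at 62.3 ± 36.3 FPKM (SD, n = 3), and these neighbors overlapped in their spread. Yap1 itself, at 36.1 ± 3.68 FPKM (SD, n = 3), lay within the spread of Cyr61 and above the other effectors. Wwtr1, Tead1 and Amotl2, at 15.1 ± 5.79, 13.2 ± 2.34 and 10.4 ± 3.11 FPKM (SD, n = 3), did not differ beyond their spread. Tead4 and Lats2, at 4.63 ± 2.72 and 4.22 ± 1.67 FPKM (SD, n = 3), were close to each other. As the libraries are bulk RNA, fewer cells expressing a gene and less RNA per cell cannot be told apart. Ankrd1 and Axl were last, at 2.43 ± 0.996 and 0.0223 ± 0.00759 FPKM (SD, n = 3).

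On plastic the order among untreated libraries was led by the same pair, and Ankrd1 and Amotl2 came next. Ctgf was at 206 ± 123 FPKM and Cyr61 at 136 ± 46.6 FPKM (SD, n = 3). Ankrd1, which encodes a nuclear and sarcomeric ankyrin repeat protein, was at 87.0 ± 37.9 FPKM and Amotl2 at 84.0 ± 52.1 FPKM (SD, n = 3). These 4 genes overlapped in their spread. Yap1 followed at 33.4 ± 8.82 FPKM, Wwtr1 at 24.4 ± 10.7, Tead1 at 21.7 ± 16.0, Lats2 at 16.6 ± 10.5 and Tead4 at 11.7 ± 7.53 FPKM (SD, n = 3), each within the spread of its neighbor. Axl was again last, at 0.596 ± 0.299 FPKM (SD, n = 3). The tables of BME and plastic were normalized separately, so FPKM is compared within each of them only.

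**Figure D1:**
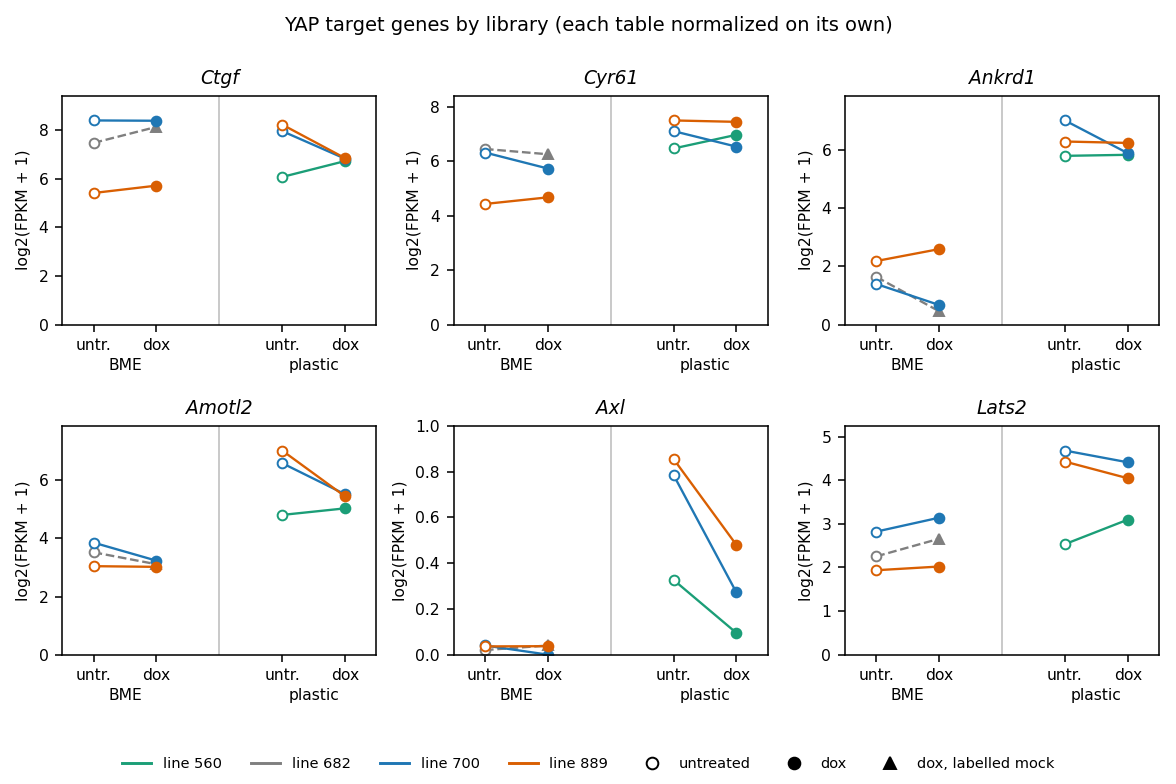
Level of the 6 YAP target genes as log2(FPKM + 1) in each library, with open circles for untreated, filled circles for dox, a triangle for the library labelled mock and a line joining the libraries of 1 organoid line. Ctgf and Cyr61 are lowest in line 889 in BME, and on plastic the untreated libraries of lines 700 and 889 are the highest for Ctgf and Amotl2.

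Ctgf (chromosome 10, 24315248 to 24318489, NCBIM37, the mm9 assembly, as for all gene positions here) differed widely between organoid lines in BME. It was at 178, 339 and 41.8 FPKM in untreated lines 682, 700 and 889, at 336 and 51.8 FPKM with dox (lines 700 and 889) and at 282 FPKM in the mock library. Both libraries of line 889 were far below the other 4, and the dox and control libraries overlapped. On plastic Ctgf was at 66.7, 250 and 301 FPKM in untreated lines 560, 700 and 889 and at 106, 113 and 115 FPKM with dox. The 3 dox libraries lay close together, below untreated lines 700 and 889 and above untreated line 560. By limma it changed by -0.31 (SE 1.05) in BME, with an adjusted p of 0.985, and by -0.62 (SE 0.55) on plastic, with an adjusted p of 0.826, all changes being on the log2(FPKM + 1) scale. The BME direction was not stable: with lines as a block the change was 0.14, without the dox library of line 889 it was 1.03, without untreated line 700 it was 0.04, and without the dox library of line 700 it was -1.64.

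Cyr61 (chromosome 3, 145309935 to 145312949) was, like Ctgf, lowest in line 889 in BME. It was at 87.0, 79.4 and 20.6 FPKM in untreated lines 682, 700 and 889, at 52.4 and 24.6 FPKM with dox (lines 700 and 889) and at 75.9 FPKM in the mock library. The plastic libraries held 88.1, 138 and 181 FPKM untreated and 125, 92.4 and 175 FPKM with dox in lines 560, 700 and 889. The arms overlapped in both environments, with limma changes of -0.66 in BME (SE 0.64, adjusted p 0.959) and of -0.04 on plastic (SE 0.35, adjusted p 0.987). With lines as a block the BME change was -0.17, and it was -0.13 without the dox library of line 889 and -1.19 without that of line 700.

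Ankrd1 (chromosome 19, 36186455 to 36194334) showed the reverse of the order of Ctgf among the untreated BME lines. It was at 2.11, 1.63 and 3.54 FPKM in untreated lines 682, 700 and 889, at 0.592 and 5.04 FPKM with dox (lines 700 and 889) and at 0.371 FPKM in the mock library, from 9 to 133 rebuilt reads. Here line 889 was the highest, both untreated and with dox, and the limma change was 0.21 (SE 0.66, adjusted p 0.984), but -0.16 with lines as a block and -0.75 without the dox library of line 889. On plastic Ankrd1 was at 54.7, 129 and 77.5 FPKM untreated and 56.2, 58.4 and 74.9 FPKM with dox in lines 560, 700 and 889, from at least 1642 rebuilt reads. Only line 700 differed by more than 1 on the log2 scale within its pair, at -1.13, and the limma change on plastic was -0.38 (SE 0.33, adjusted p 0.823), with -0.06 without untreated line 700 and -0.67 without untreated line 560.

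Amotl2 (chromosome 9, 102619002 to 102635748) encodes a junctional scaffold of the angiomotin family that binds YAP and holds it back, and it had the lowest change of the tested targets on plastic. It was at 10.5, 13.5 and 7.26 FPKM in untreated BME lines 682, 700 and 889, at 8.42 and 7.13 FPKM with dox (lines 700 and 889) and at 7.65 FPKM in the mock library. Its plastic levels were 27.1, 95.5 and 129 FPKM untreated and 31.8, 44.9 and 42.7 FPKM with dox in lines 560, 700 and 889. As for Ctgf, the dox libraries lay together, between untreated line 560 below and untreated lines 700 and 889 above. The limma change was -0.81 (SE 0.56, adjusted p 0.772), a fold of 0.572 with a 95% interval of 0.225 to 1.45. It was -0.37 without untreated line 889 and -1.47 without untreated line 560, and the plastic change of Ctgf was -0.22 and -1.30 without the same libraries.

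Lats2 (chromosome 14, 58260914 to 58377225), the Hippo kinase that both responds to YAP and phosphorylates it, was at 3.77, 6.06 and 2.82 FPKM in untreated BME lines 682, 700 and 889, at 7.82 and 3.06 FPKM with dox (lines 700 and 889) and at 5.31 FPKM in the mock library. Its levels on plastic were 4.79, 24.6 and 20.5 FPKM untreated and 7.54, 20.3 and 15.5 FPKM with dox in lines 560, 700 and 889. Line 560 was well below the other lines whether treated or not. The dox and control libraries overlapped in both environments, and limma gave 0.16 in BME (SE 0.39, adjusted p 0.979) and -0.03 on plastic (SE 0.63, adjusted p 0.993).

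Axl (chromosome 7, 26542292 to 26573724), a receptor tyrosine kinase that binds GAS6, was almost silent in BME, with 0 to 2 rebuilt reads in each of the 6 libraries. On plastic it was at 0.254, 0.724 and 0.810 FPKM untreated and 0.0678, 0.207 and 0.395 FPKM with dox in lines 560, 700 and 889, from 26 to 86 and 7 to 32 rebuilt reads. It was lower with dox in 3 of 3 plastic lines (560, 700 and 889), with changes of -0.23, -0.51 and -0.38 on the log2(FPKM + 1) scale. The arms overlapped, with p = 0.2 by a two-sided exact permutation test, where 3 against 3 libraries cannot go below 0.1. Paired by line the mean change was -0.37 ± 0.14 (SD, n = 3), and a two-sided exact sign-flip permutation test gave p = 0.25, the smallest that 3 pairs allow. Of 19071 genes above 0 in any plastic library, 15.7% were lower in 3 of 3 pairs. Its mean was under 0.5 FPKM in both tables, so it was not part of the tests across all genes.

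**Figure D2:**
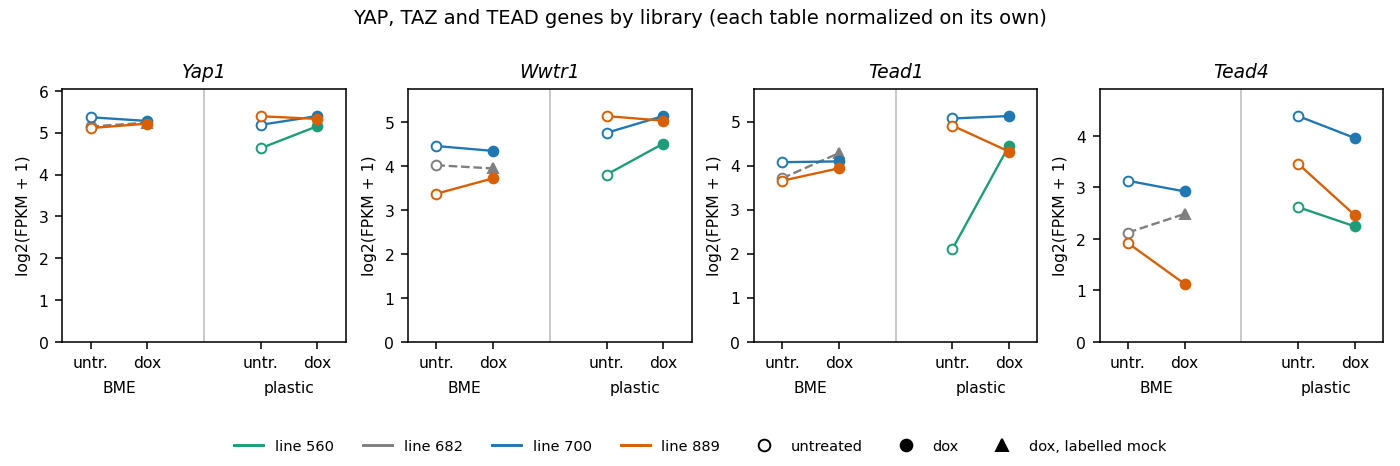
Level of Yap1, Wwtr1, Tead1 and Tead4 as log2(FPKM + 1) in each library, drawn as for the target genes. Yap1 varies little, Tead1 is at 3.30 FPKM in untreated line 560 on plastic, and Tead4 is lower with dox in each of the 5 dox pairs.

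Of the effector genes, Yap1 (chromosome 9, 7931999 to 8004596) was the most even. It was between 33.5 and 40.3 FPKM in the 6 BME libraries and between 34.7 and 41.2 FPKM on plastic, apart from 23.7 FPKM in untreated line 560. By limma it changed by 0.03 in BME (SE 0.13, adjusted p 0.992) and by 0.22 on plastic (SE 0.24, adjusted p 0.863). The BME interval of -0.29 to 0.35 is the narrowest of the 9 tested members and lies within a fold of 0.818 to 1.28. Wwtr1 (chromosome 3, 57259571 to 57379832) was at 15.2, 20.9 and 9.32 FPKM in untreated BME lines 682, 700 and 889, at 19.3 and 12.2 FPKM with dox (lines 700 and 889) and at 14.4 FPKM in the mock library. Plastic libraries gave 13.0, 26.0 and 34.1 FPKM untreated and 21.8, 34.1 and 31.6 FPKM with dox in lines 560, 700 and 889. Like Ctgf, Wwtr1 was lowest in line 889 in BME and in line 560 on plastic. Limma gave 0.09 in BME (SE 0.33, adjusted p 0.990) and 0.33 on plastic (SE 0.38, adjusted p 0.873).

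Tead1 (chromosome 7, 119822832 to 120050319), the TEAD gene with the highest FPKM in 5 of 6 plastic libraries, was at 11.6 to 18.5 FPKM in the 6 BME libraries. On plastic it was at 3.30, 32.6 and 29.1 FPKM untreated and 21.0, 34.0 and 19.0 FPKM with dox in lines 560, 700 and 889. The limma change of Tead1 was 0.61 (SE 0.79, adjusted p 0.890), and -0.36 without untreated line 560. Tead4 (chromosome 6, 128174306 to 128250841) was at 3.35, 7.74 and 2.78 FPKM in untreated BME lines 682, 700 and 889, at 6.57 and 1.18 FPKM with dox (lines 700 and 889) and at 4.59 FPKM in the mock library. On plastic it was at 5.13, 19.9 and 9.999 FPKM untreated and 3.73, 14.5 and 4.50 FPKM with dox in lines 560, 700 and 889. Tead4 was the 1 tested member that was lower with dox in 5 of 5 same-line pairs, with changes of -0.21 and -0.79 in BME and of -0.37, -0.43 and -1.0 on plastic, a pattern that 8.06% of 11977 genes shared. No tested member was higher in 5 of 5, as 8.70% of genes were. In the mock pair it was higher by 0.36. The arms overlapped, and neither the limma change of -0.39 in BME (SE 0.56, adjusted p 0.965) nor that of -0.60 on plastic (SE 0.60, adjusted p 0.848) passed. The plastic change was -0.15 without untreated line 700 and -1.14 without the dox library of that line.

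The question behind the dox comparison was which genes respond when SMAD4 is restored, and no member passed the limma test used here in either environment. Of the 9 tested members, limma called 0 in BME, where 0.0231% of 12996 genes were called (adjusted p below 0.05, change beyond 1 in size). On plastic 0 of 9 were called, where 0.0324% of 12333 genes were. Without adjustment (p below 0.05, same size of change) 0 members passed in both environments, against 0.954% and 3.64% of all genes. The members' adjusted p was 0.959 to 0.992 in BME and 0.772 to 0.993 on plastic. Smad4 itself, at a limma change of 1.36 in BME (SE 0.27, adjusted p 0.959) and of 3.42 on plastic (SE 0.55, adjusted p 0.162), did not pass after adjustment either. With DESeq2 at the same cut-offs the paper reports many more regulated genes in each environment, so a gene not called here may still respond. Its DESeq2 results for the members were not used. Exact permutation tests, two-sided, gave the 10 members p = 0.267 to 0.933 in BME, where the smallest possible p is 0.0667, and 0.2 to 0.9 on plastic, where it is 0.1.

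With so few libraries and no block for line, these tests leave room for sizeable changes, and their intervals also hold the spread between lines. The 95% interval of Ctgf reached from -2.83 to 2.22 in BME and from -1.95 to 0.70 on plastic, and that of Amotl2 from -2.15 to 0.54 on plastic. The dox change itself was compared between environments as an interaction over 11977 genes, of which 0% were called, and 1.33% passed without adjustment. None of the 9 members passed there, with differences from -0.59 for Ankrd1 (SE 0.77) to 0.62 for Cyr61 (SE 0.77) and a limma adjusted p of 1.00 for each. With lines as a block the differences ran instead from -0.77 for Ctgf to 0.46 for Tead1, with Ankrd1 at -0.22 and Cyr61 at 0.13. The SE for Ctgf was then 0.62, against 1.26 with no block.

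**Figure D3:**
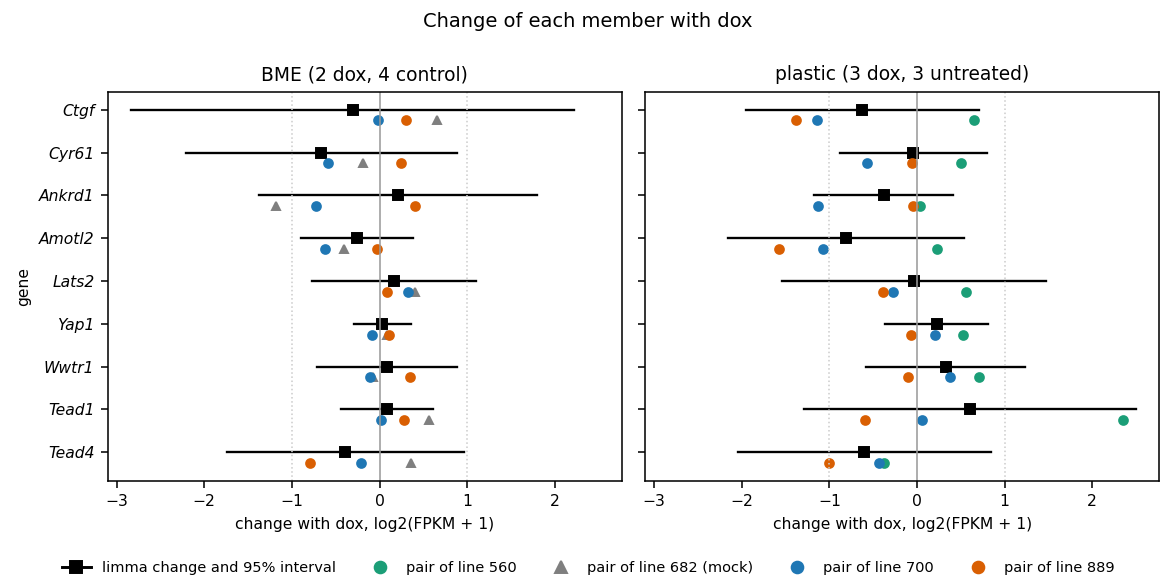
Change of the 9 tested members with dox on the log2(FPKM + 1) scale in BME and on plastic, with squares and bars for the limma change and its 95% interval, circles for same-line pairs and triangles for the mock pair. Every interval crosses 0, and on plastic the 5 targets are higher in the pair of line 560 and lower in those of lines 700 and 889.

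The plastic pairs split by organoid line in the same way for each tested target. Ctgf changed with dox by 0.66 in line 560 and by -1.14 and -1.38 in lines 700 and 889. Amotl2 changed by 0.23 in line 560 and by -1.07 and -1.58 in the others. Cyr61, Ankrd1 and Lats2 had the same signs, from 0.04 to 0.56 in line 560 and from -0.05 to -1.13 in the other lines. All 5 tested targets thus had the pattern, which was picked after the values were seen and which 17.4% of 11977 genes had. Axl, outside the test, was lower in all 3 lines.

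The line 560 pair rests on the untreated library that stood apart. That library held the lowest of the 6 plastic values for 8 of the 9 tested members, all but Tead4, against 28.6% of all genes tested. It held the highest for 0 of the 9, against 27.6% of genes. The part of its lower median FPKM in this was not tested. When line 560 was left out, a choice made after its values were seen, the limma change on plastic was -1.26 for Ctgf (SE 0.15, unadjusted p 0.00146, adjusted p 0.188) and -1.32 for Amotl2 (SE 0.20, unadjusted p 0.00305, adjusted p 0.188). These 2 targets passed at the unadjusted threshold, as did 2.39% of 12155 genes in the lower direction, and neither passed after adjustment. The other targets were at -0.31 for Cyr61, -0.33 for Lats2 and -0.59 for Ankrd1 in that fit.

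The same 2 lines can be followed in BME, where their pairs gave values smaller in size for Ctgf and Amotl2. Ctgf was at -0.01 and 0.30 in the BME pairs of lines 700 and 889, and Amotl2 at -0.62 and -0.02. The other tested targets were mixed. Cyr61 was at -0.59 and 0.24 in BME, against -0.57 and -0.05 on plastic. Ankrd1 was at -0.72 and 0.41, against -1.13 and -0.05, and Lats2 at 0.32 and 0.09, against -0.27 and -0.38. Fitted over these lines alone, with no block for line, the plastic change minus the BME change was -1.40 for Ctgf (SE 1.64, unadjusted p 0.423). For Amotl2 it was -1.0015 (SE 0.42, unadjusted p 0.0548), both at a limma adjusted p of 1.00. The level gap between the lines thus enters these SEs. Without untreated line 560 alone, the difference was -1.22 for Amotl2 (SE 0.37, unadjusted p 0.00891) and -0.99 for Ctgf (SE 1.25, unadjusted p 0.447), again at a limma adjusted p of 1.00 for both. In that fit 0.947% of 11932 genes passed at the unadjusted threshold in the lower direction, with a change beyond 1 in size.

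In the mock pair of line 682, where Smad4 went from 8.88 to 10.3 FPKM, Ctgf changed by 0.66, Ankrd1 by -1.18 and Amotl2 by -0.41. For Ctgf and Ankrd1 these values were larger in size than those of either dox pair in BME. The same held for Lats2, at 0.40 in the mock pair, and Tead1, at 0.57, and for none of the other members. For transduction the paper's methods list either a mock plasmid or pINDUCER-SMAD4, while the genotype label of this library names pINDUCER-SMAD4. If mock means that plasmid, the pair of line 682 gives the change with dox alone, in 1 line. In the other lines the effect of dox and that of SMAD4 cannot be told apart.

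The levels of the members in BME also differed by line. Untreated line 889 held the lowest of the 6 BME values for Ctgf, Cyr61, Lats2, Yap1, Wwtr1 and Tead1, 6 of 9 tested members, against 16.4% of 12996 genes. This was noticed in the values and has no test. The dox library of line 889 was lowest for Amotl2 and Tead4, beside 2265 of the 12996 genes. The mock library was lowest for Ankrd1, beside 1943 of the 12996 genes. On plastic the highest values were divided among 3 libraries. Untreated line 889 had the most Ctgf, Cyr61, Amotl2 and Axl, 3 of them among the 9 tested members, against 13.5% of 12333 genes. Untreated line 700 had the most Ankrd1, Lats2 and Tead4, beside 1485 of those 12333 genes. The dox library of line 700 had the most Yap1, Wwtr1 and Tead1, beside 2186 of the 12333 genes.

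Levels in BME and on plastic were set against each other by rank, that is by the percentile of a gene among all 24906 genes of its own library. The rank of 3 members was higher in all 6 plastic libraries than in all 6 BME libraries, those of Ankrd1, Amotl2 and Axl. Of 20082 genes above 0 in any library, 6.06% were higher on plastic in this sense and 4.55% lower, and no member was lower. These ranks were not tested.

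Ankrd1 differed most, with percentiles of 47.5 to 63.5 in BME and 93.1 to 97.3 on plastic. Its median was 38.3 percentile points higher, and 0.229% of genes had a larger rise. Amotl2 ranked at 67.5 to 76.0 in BME and 87.3 to 97.5 on plastic, a median difference of 22.1 points that 1.85% of genes exceeded. Axl went from 17.2 to 35.7 in BME to 41.4 to 54.8 on plastic, at levels of at most 2 rebuilt reads in BME, where the rank depends on how many genes are at 0. Genes above 0 numbered 16340 to 16805 in BME libraries and 15723 to 16447 on plastic.

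**Figure D4:**
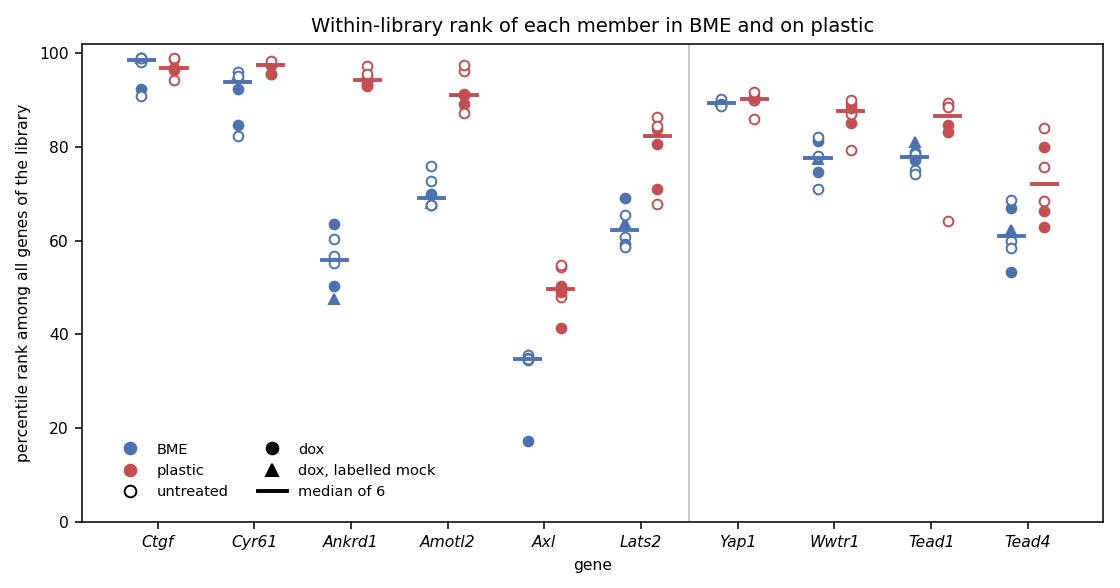
Percentile rank of the 10 members among all genes of their library, with 6 BME libraries in blue, 6 plastic libraries in red, open symbols for untreated, filled for dox, a triangle for the mock library and bars at the medians. Ankrd1, Amotl2 and Axl do not overlap between environments, while Ctgf and Yap1 share their range.

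The most abundant targets did not show this. Ctgf had a median percentile of 98.6 in BME and 96.8 on plastic, and its ranges of 90.9 to 99.1 and 94.2 to 99.0 overlapped. Cyr61 went from a median of 93.8 to 97.5, with 82.4 to 95.9 in BME just reaching the 95.5 to 98.3 of plastic. Lats2 had a median of 62.3 in BME and 82.3 on plastic, but its 67.8 in untreated line 560 lay below the 69.1 of the BME dox library of line 700.

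Of the effectors, Yap1 kept its place, at a median of 89.3 in BME and 90.2 on plastic. Wwtr1, Tead1 and Tead4 had medians 9.9, 8.7 and 11.1 points higher on plastic, each with overlap. Among untreated libraries alone, 4 of 10 members were higher on plastic without overlap, Lats2 with the 3 named, where 22.6% of genes were, and 0 were lower. Without untreated line 560, 6 of 10 members were higher, with Lats2, Wwtr1 and Tead1 added, against 9.28% of genes, and without the BME dox library of line 700 there were 4, with Lats2, against 7.68%. Every other library left out gave the same 3. When ranks were taken among the 11977 genes tested in both tables, which leaves out Axl, 2 of 9 members (Ankrd1 and Amotl2) were higher over all libraries, against 8.25% of genes, and 3 of 9, with Lats2, among untreated libraries, against 18.2%. The environments differ also in the table and in the depth, so that culture on plastic and these cannot be told apart. They differ in 1 of their 3 lines as well, while lines 700 and 889 were in both. In these lines, untreated, Ankrd1 ranked at 55.3 and 60.3 in BME and 97.3 and 95.5 on plastic. Amotl2 ranked at 76.0 and 67.7 in BME and 96.2 and 97.5 on plastic. The part of the unshared lines in the ranks was not tested.

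Other genes of the pathway, from lists written by hand, did not pass the dox test either. Of 16 further conserved YAP/TAZ targets, 12 were tested in BME and 14 on plastic, and 0 were called in either direction. Their median change was 0.17 in BME and -0.30 on plastic, beside -0.01 and 0.01 over all genes tested. In BME they ranged from 0.54 for Nt5e, an ecto-nucleotidase, to -0.79 for Ptpn14, a phosphatase that restrains YAP. On plastic they ranged from 0.52 for F3, tissue factor, to -1.76 for Igfbp3, a carrier of insulin-like growth factors, whose levels ran from 0.107 to 79.9 FPKM between plastic libraries (SE 1.74, limma adjusted p 0.846). With a library left out Igfbp3 ran from -3.76 to -0.67, without untreated line 700 and without untreated line 889, and F3 from 0.23 to 0.94, without untreated lines 560 and 889.

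Of the other TEAD and Vestigial-like genes, which encode DNA-binding partners of YAP or proteins that bind TEAD in its place, 3 of 6 were tested in BME and 4 on plastic, and 0 were called. Tead2 had the lowest change in BME, -0.91 (SE 0.51, limma adjusted p 0.959), and Tead3 the highest, -0.01. On plastic these were Vgll3 at -0.50 and Vgll4 at 0.22. Of 24 Hippo core and upstream regulators, 22 were tested in each environment and 0 were called, with medians of 0.00 and 0.04. Their extremes were Kirrel at 0.27 and Amot at -0.34 in BME, and Mob1b at 0.63 and Wtip at -1.04 on plastic. Of 16 SRF and actin cytoskeleton genes, a group that also answers to cell tension, 13 and 12 were tested and 0 were called. Actb at 0.47 and Srf at -0.14 bounded them in BME, and Actg1 at 0.98 and Actn1 at -0.44 on plastic. Values of these lists also moved with single libraries. In BME, Nt5e was at 1.41 and Tead2 at -1.28 without the dox library of line 889, and Ptpn14 at -1.22 without that of line 700 and -0.35 without that of line 889. On plastic, Vgll3 was at -0.91 and Actn1 at -0.80 without untreated line 560, Actn1 at -0.17 without the dox library of that line, Wtip at -1.71 and Vgll4 at 0.06 without the dox library of line 700, and Wtip at -0.59 without untreated line 700.

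The highest and lowest changes of the cell type markers with dox did not pass after adjustment. Of the 8 epithelial markers, 8 had a change above 0 in BME and 6 on plastic. At the unadjusted limma threshold 2 of 8 passed in BME, against 0.954% of genes, and 0 on plastic, against 3.64%. For the difference between environments 1 of 8 passed, in the lower direction, against 1.33% in both directions. The keratin gene Krt8 had the highest change in BME, 1.13 (SE 0.22, unadjusted p 0.00186, limma adjusted p 0.959), and the intestinal factor Cdx2 the lowest, 0.04. On plastic these were Krt20 at 1.32 (limma adjusted p 0.655) and Krt19 at -0.95 (limma adjusted p 0.567). Of the mesenchymal markers, Col1a1 was at 0.76 and Vim at 0.57 in BME, and Vim, the only one tested on plastic, at 1.72 there (SE 1.00, limma adjusted p 0.712). Tek was the only endothelial marker tested, at 0.74 in BME and 0.28 on plastic. The only immune marker tested was Itgam in BME, at 0.03, and Csf1r on plastic, at -0.55 (unadjusted p 0.0484, limma adjusted p 0.599). Single libraries moved several of these values: Krt20 was at 0.61 on plastic without the dox library of line 560, Vim at 0.56 on plastic without that of line 889, and without the BME dox library of line 700 Col1a1 was at 1.76, Vim at 1.39 and Tek at 1.83. The part of these markers in the members' changes was not tested.

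**Figure D5:**
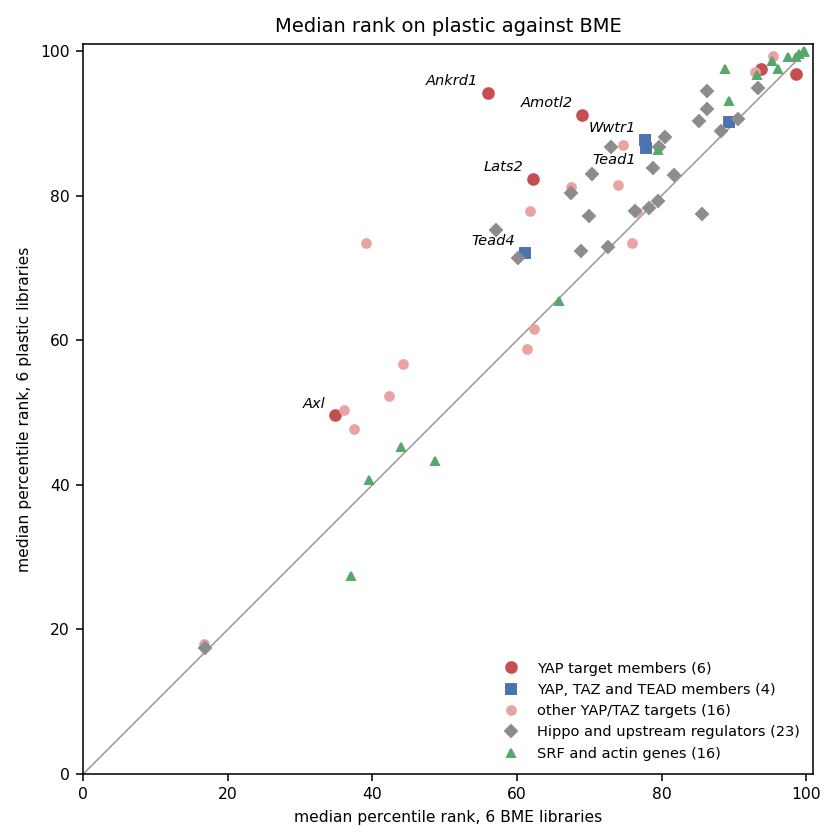
Median percentile rank over 6 plastic libraries against that over 6 BME libraries, for the members and for the other YAP/TAZ targets, Hippo regulators and SRF and actin genes above 0 in any library, with the line of equal rank. Ankrd1, Amotl2, Lats2 and Axl lie well above the line.

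By rank, the same lists held further genes without overlap between environments, again with no test. Of the 16 further targets, F3, Gadd45a and Arhgef17 were higher in all 6 plastic libraries and 0 were lower. F3 ranked at 91.8 to 97.6 in BME and 98.5 to 99.6 on plastic. Of 23 Hippo regulators above 0, 5 were higher (Stk3, Amotl1, Taok3, Rassf1 and Ajuba) and 0 lower. Amotl1, a sister of Amotl2, ranked at 52.2 to 60.1 in BME and 69.4 to 85.1 on plastic. Of 16 SRF and actin genes, 8 were higher (Srf, Actb, Actn1, Cnn2, Flna, Tagln2, Tpm1 and Zyx) and 0 lower, beside 6.06% of all genes. The shifts of this list were small, with a median of 1.19 percentile points against 0.44 over all genes, and Actb ranked at 99.64 to 99.87 in BME and 99.91 to 99.98 on plastic. Of the 5 TEAD and Vestigial-like genes above 0, Vgll3 was higher, from 0 to 3 rebuilt reads in BME and 5 to 158 on plastic. Vgll1 also ranked higher, but it was at 0 reads in all BME libraries and in 2 of 6 plastic libraries, where its rank only reflects how many genes are at 0. Of the epithelial markers 0 of 8 were without overlap over all libraries, while among untreated libraries Krt8, Krt18 and Krt19 were higher on plastic and Epcam, Vil1 and Krt20 lower. Over all libraries, of the mesenchymal markers Col1a1 and Col1a2 were lower, of the endothelial markers Cdh5 was higher, and of the immune markers 0 of 5 differed. Cdh5 was at 0 to 1 rebuilt reads in BME and 1 to 10 on plastic, levels at which the rank depends on how many genes are at 0. The part of these markers in the members' ranks was not tested.

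How the members varied together was described by correlation over the 12 libraries, each gene being centred within its table, so that lines, dox and library properties are all shared by the points. The highest values were r = 0.908 for Yap1 and Tead1 and 0.901 for Yap1 and Wwtr1, all 3 genes being lowest in untreated line 560 on plastic. Tead4 was at 0.397 with Yap1, 0.488 with Tead1 and 0.568 with Wwtr1, and the target Lats2 at 0.802 to 0.864 with Yap1, Tead1 and Wwtr1. Ctgf and Cyr61 were at r = 0.839. Ctgf and Amotl2 were at 0.656 over all libraries, 0.603 over the 6 BME libraries and 0.982 over the 6 on plastic. Ankrd1 was at -0.459 with Ctgf and -0.435 with Cyr61, and these values turned sign between environments: with Ctgf it was at -0.866 over the 6 BME libraries and 0.757 over the 6 on plastic, and with Cyr61 at -0.697 and 0.515. The 5 genes nearest to Ctgf by this measure were Oxr1 (r = 0.971), Epn2 (0.967), Spata6 (0.966), Pdzd7 (0.932) and Igsf3 (0.931), and Cyr61 came in 92nd place. Nearest to Cyr61 were Kantr (r = 0.927), Frs3 (0.915), Mat2b (0.901), Crbn (0.893) and Cadm1 (0.892), with Ctgf in 24th place.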

How the data were processed

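RNA-Seq libraries were made from total RNA of 12 organoid cultures. Per the submitters' processing notes the authors used kallisto, DESeq2 and mm9; versions and annotation are not given in the sources used here. The authors deposited FPKM (fragments per transcript length and library size) in 1 table for each environment, normalized on its own 6 libraries. Their comparison tables hold a mean normalized count per gene, fold changes, a test score and p-values for dox, of which only the deposited mean, a signal across libraries, was used, to rebuild approximate reads (82.5% to 89.1% of values under 50 reads came out whole within 0.1). Recovered reads described depth and served 1 alternative.

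Genes with a mean of at least 0.5 FPKM over 6 libraries were tested on log2(FPKM + 1) with limma 3.58.1 (R 4.3.3, trend, two-sided, Benjamini-Hochberg over all genes tested, no block), which understates changes of low genes: 2 dox against 4 control libraries in BME (the mock library as control, as in the study), 3 against 3 on plastic. The code was tested on simulated data. Deviations of same-line libraries correlated at 0.247 to 0.66 between dox and untreated, so lines pair the samples. Alternatives were another pseudocount, filter, scaling and arm for the mock library, the block, libraries left out, lines 700 and 889 alone and limma-voom. The equal-sum scaling, limma-voom, lines 700 and 889 alone on plastic and the ranks without a library were chosen after seeing the data.

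The members and lists were chosen with earlier results of these data known. All 10 members are described, with the highest and lowest change of each other list and the 5 genes nearest to Ctgf and Cyr61. Genes named by rank, and patterns said to be noticed, were picked after their values were seen.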

Additional observations from a re-analysis of the deposited data

Results flagged for a closer look

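Outlying values were searched for in the BME control libraries only, which include both libraries of line 682. Cyr61 gave the 1 value there that stood far from the rest of its group. Untreated line 889 was at 20.6 FPKM, while untreated lines 682 and 700 and the mock library were at 75.9 to 87.0 FPKM, and the gap was 0.833 of the whole range, just above Dixon's critical value for 4 samples. Of 11 such values tested, 0.55 would be marked by chance. The dox library of the same line was also low, at 24.6 FPKM.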

How the results depend on the processing

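Under every alternative run, 0 members were called in any comparison, and the lowest adjusted p of a member was 0.657 in BME (without untreated line 889), 0.188 on plastic (lines 700 and 889 only) and 0.955 for the difference (replicate block). Counts over all genes were less stable. The 3 genes called in BME, all higher with dox, became 1 higher by limma-voom, 1 lower with a pseudocount of 0.1, 0 with the mock library counted with dox, 0 with the replicate block, and 0 to 37 with a library left out. The 4 called on plastic (3 higher, 1 lower) became 10 by limma-voom (3 higher, 7 lower), 10 with a pseudocount of 0.1 (5 and 5), 7 with the block (6 and 1), 0 with no filter, 0 in lines 700 and 889 only, and 0 to 55 with a library left out. For the difference, 0 became 5 with no filter, all lower. The 3 members ranked higher on plastic became 3 to 6 with a library left out, and 2 of 9 when ranked among the genes tested in both tables. Many small changes turned sign, and the cause was not tested. With the block in BME, Ctgf was at 0.14, Ankrd1 at -0.16, Tead3 at 0.0538 and Cdx2 at -0.12, and the pairing changed no call of a member. With the mock library counted with dox, Ctgf was at 0.32, Ankrd1 at -0.50 and Cdx2 at -0.21. Equal sums of FPKM, which shift the median of all genes by -0.07 in BME, gave Yap1 -0.0446, Cdx2 -0.0357 and Itgam -0.0075, and limma-voom gave Yap1 -0.0392, Cdx2 -0.0295 and Itgam -0.045. In lines 700 and 889 only, Tead1 was at -0.27 on plastic, and the difference was -0.14 for Cyr61 and -0.42 for Tead1. With a library left out, changes in BME ran from -1.64 to 1.03 for Ctgf, -0.75 to 1.18 for Ankrd1, -0.40 to 0.72 for Lats2, -0.0039 to 0.0824 for Yap1, -0.23 to 0.40 for Wwtr1, -0.0071 to 0.20 for Tead1, -1.29 to 0.51 for Tead4, -0.71 to 0.041 for Amot, -0.52 to 1.06 for Kirrel, -0.31 to 0.0178 for Srf, -0.069 to 0.0406 for Tead3, -0.0795 to 0.18 for Cdx2 and -0.0136 to 0.23 for Itgam. On plastic they ran from -0.32 to 0.20 for Cyr61, -0.70 to 0.37 for Lats2, -0.0532 to 0.61 for Wwtr1, -0.36 to 1.13 for Tead1 and -0.0425 to 0.97 for Mob1b. The difference ran from -1.65 to 1.02 for Ctgf, -1.56 to 0.37 for Ankrd1, -0.87 to 0.37 for Lats2, -0.0278 to 0.35 for Yap1, -0.14 to 0.55 for Wwtr1, -0.44 to 1.04 for Tead1 and -1.11 to 0.69 for Tead4. Leaving out 1 of the 2 BME dox libraries leaves 1, assumed to vary like the controls. Rescaling by median ratios gave the same counts of calls, since the deposited values were already scaled so. Few libraries, separate tables and partly different lines limit what these data can show, and Axl in BME is at the limit of depth.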
